A study of Mus musculus with 12 samples.

Results

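The genes described here encode 6 chemokine receptors of inflammatory and tissue-homing traffic, Ccr2, Cxcr3, Cxcr4, Cxcr6, Cx3cr1 and Ccrl2, measured in natural killer (NK) cells sorted from mouse lymph nodes. The genes were chosen by symbol, and all 6 were found among the 56748 gene IDs of the count files and were among the 16016 genes that passed the filter on low counts. There were 12 libraries of poly(A) RNA, 4 to a group. The hematogenous group is NK cells of nodes that bear diffuse large B cell lymphoma disseminated by way of the blood vessels. The lymphatic group is NK cells of nodes bearing the same kind of lymphoma disseminated by way of the lymphatic system, and the tumor-free group is NK cells of nodes of C57BL/6J mice with no tumor. The sources used here do not name the lymphoma line, its route or time of injection, the age and sex of the mice or the gate of the sort. Samples carry the numbers 1 to 4 within a group, but whether each number is its own mouse is not stated, and the p-values therefore cover the variation among these samples, possibly technical only.

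Chemokine receptors are membrane proteins that signal through inhibitory G proteins and steer migrating leukocytes along gradients of chemokines. In NK cells, Ccr2 and Cxcr3 guide recruitment into inflamed and interferon-exposed tissue, Cxcr4 holds cells in niches rich in its ligand Cxcl12, Cxcr6 is prominent on tissue-resident cells, and Cx3cr1 appears late in maturation. Ccrl2 is an atypical member that binds chemerin and presents it to other cells rather than driving migration itself. A sorted population is measured here, so fewer cells that express a receptor and less of its mRNA per cell cannot be told apart.

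Promoter sequences are shown for the 4 receptors whose mRNA differed between a tumor-bearing group and tumor-free nodes, as the stretch from 250 bases before the transcription start to 50 bases after it. They come from RefSeq on GRCm38.p6, an older build than the GRCm39 named in the submitters' processing notes, and matched by symbol for all 6 genes. Ccr2 lies at chr9:124101933-124102232 on the plus strand, Cxcr3 at chrX:101734098-101734397 on the minus strand, Cxcr4 at chr1:128592250-128592549 on the minus strand and Ccrl2, for the first of its 3 listed starts, at chr9:111057469-111057768 on the minus strand. Capitals mark matches on either strand to 4 short motifs: AP-1 (TGANTCA), the interferon-stimulated response element (a pair of GAAA with 2 bases between), the T-box core (TCACAC) and the hypoxia response element (ACGTG).
Ccr2: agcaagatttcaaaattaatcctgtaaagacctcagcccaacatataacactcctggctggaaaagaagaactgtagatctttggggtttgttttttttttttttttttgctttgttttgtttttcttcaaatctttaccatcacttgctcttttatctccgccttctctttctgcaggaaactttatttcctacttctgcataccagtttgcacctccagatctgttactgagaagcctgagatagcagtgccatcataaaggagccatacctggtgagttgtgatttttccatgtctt
Cxcr3: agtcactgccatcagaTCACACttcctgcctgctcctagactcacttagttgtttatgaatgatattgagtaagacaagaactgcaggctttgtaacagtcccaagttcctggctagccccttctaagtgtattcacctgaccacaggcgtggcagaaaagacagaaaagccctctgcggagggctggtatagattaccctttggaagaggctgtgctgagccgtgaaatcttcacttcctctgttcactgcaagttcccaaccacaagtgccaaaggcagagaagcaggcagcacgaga
Cxcr4: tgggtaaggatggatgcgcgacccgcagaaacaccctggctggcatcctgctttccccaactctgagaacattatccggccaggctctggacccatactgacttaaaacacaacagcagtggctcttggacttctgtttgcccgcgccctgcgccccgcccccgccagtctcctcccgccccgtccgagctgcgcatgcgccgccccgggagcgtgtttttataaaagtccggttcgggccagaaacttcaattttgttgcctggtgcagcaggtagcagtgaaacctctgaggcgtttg
Ccrl2: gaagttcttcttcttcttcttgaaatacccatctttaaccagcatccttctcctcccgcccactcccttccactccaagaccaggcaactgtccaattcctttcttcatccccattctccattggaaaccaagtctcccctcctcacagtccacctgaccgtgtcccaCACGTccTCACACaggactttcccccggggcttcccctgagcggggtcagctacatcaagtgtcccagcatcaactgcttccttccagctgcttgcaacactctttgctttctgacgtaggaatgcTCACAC
The T-box core, a sequence recognized by factors such as T-bet and Eomes, occurred once in the Cxcr3 stretch and at 2 places in the Ccrl2 stretch, which also held 1 hypoxia element. Among all 32851 promoter stretches of the table, 14.5% held a T-box core, 19.6% a hypoxia element, 7.81% an AP-1 site and 3.44% an interferon element. No match to any of the 4 motifs was found in the Ccr2, Cxcr4, Cxcr6 or Cx3cr1 stretches. A match is a description of letters in this window and not a binding site.

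Gene counts ranged from 10087837 to 19625766 in hematogenous libraries, from 17672832 to 43494812 in lymphatic libraries and from 6654215 to 23674960 in tumor-free libraries. Reads assigned to genes made up 55.4% to 65.5% in hematogenous, 67.1% to 72.1% in lymphatic and 65.7% to 70.7% in tumor-free libraries. The hematogenous range lay below both others. Hematogenous replicate 1 was the lowest, at 55.4% assigned, with 14.6% of its reads unaligned and 24.6% outside features. With every library thinned to 6654215 counts, 3 of the tumor-free libraries had reads on 14168 to 14741 genes, against 20895 in tumor-free replicate 3 and 16857 to 21885 in the other 8 libraries. The label NK cell was set against 10 NK marker genes, all of which were detected in every library. Their summed level was 6781 to 8281 CPM (each count relative to the total of its library, after TMM scaling) in hematogenous, 9960 to 11984 CPM in lymphatic and 10964 to 13420 CPM in tumor-free libraries. The hematogenous libraries thus lay below both other groups for the NK marker sum, and the receptors are also given per 1000 CPM of these markers, a scale without a test. It is not a measure of NK cell content, because the 10 markers did not move alike. In hematogenous over tumor-free libraries 8 were called as lower, among them Gzma with means of 1392 against 3198 CPM. Klrk1, at 1524 against 1586 CPM, and Klra8, at 997 against 763 CPM, were not called. A gene with equal CPM in all groups stands higher in hematogenous libraries on this scale, because the marker sum is lower there. The share of all tested genes that separate on this scale was not computed. Without tumor-free replicate 3 every call on a receptor was the same as with it. Reads of the length sequenced, 120 bases, could be told apart between genes for nearly all of each receptor transcript. Of 6689 distinct stretches of that length in Ccr2 transcripts 0.493% also occurred in another gene, and none was shared with another gene for the other 5 receptors. Exons of Cx3cr1 overlap those of an antisense model, Gm33858, which held 0 to 20 counts per library.

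In CPM, the hematogenous libraries held less Ccr2 and Cxcr3 and more Cxcr4 than the tumor-free libraries. For Cxcr3 this did not hold relative to the NK markers, as given below. Compared with tumor-free nodes, Ccr2 fell 2.05-fold, Cxcr3 fell 1.495-fold and Cxcr4 rose 3.34-fold, while Cxcr6, Cx3cr1 and Ccrl2 were not called. A gene was called at an adjusted p under 0.05 in edgeR's quasi-likelihood test with Benjamini-Hochberg adjustment over all genes tested. By that rule 16.4% of all tested genes were called in this comparison, 9.52% higher and 6.87% lower, against 3 of the 6 receptors, 1 higher and 2 lower. The CPM values of the groups did not overlap for those 3 receptors, nor for 19.5% of all tested genes, 11.5% higher and 8.01% lower.

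Ccr2, the receptor for Ccl2 and related monocyte chemoattractants, was the most abundant of the 6 by count. It stood at 641, 572, 628 and 521 CPM in hematogenous replicates 1 to 4, against 1125, 1360, 1212 and 1139 CPM in tumor-free replicates 1 to 4. Every hematogenous library lay below every tumor-free library. The log2 fold change was -1.03 (SE 0.125, edgeR adjusted p = 6.37e-05). Set against the summed NK markers of the same library, Ccr2 was 71.4 to 88.9 CPM per 1000 CPM of NK markers in hematogenous and 87.5 to 110.5 in tumor-free libraries. On this scale the groups met at their edges, with means of 78.3 ± 7.50 in the hematogenous and 99.4 ± 9.52 in the tumor-free group (SD, n = 4 each).

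Cxcr3, which binds the interferon-induced ligands Cxcl9, Cxcl10 and Cxcl11, stood at 145, 136, 85.4 and 109 CPM in hematogenous replicates 1 to 4, against 181, 166, 167 and 198 CPM in tumor-free replicates. The groups did not overlap, and hematogenous replicate 3 was the lowest. The log2 fold change was -0.58 (SE 0.143, edgeR adjusted p = 0.00915). Per 1000 CPM of NK markers, Cxcr3 averaged 15.9 ± 4.11 in hematogenous and 14.7 ± 1.97 in tumor-free libraries (SD, n = 4 each). On that scale the groups overlapped, and the hematogenous mean was not the lower one.

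Cxcr4, the receptor for Cxcl12 that retains lymphocytes in marrow and lymphoid niches, stood at 140, 312, 289 and 360 CPM in hematogenous replicates 1 to 4. The tumor-free replicates had 82.6, 66.1, 71.5 and 110.2 CPM. All hematogenous libraries were higher than all tumor-free libraries, with replicate 1 closest to them. The log2 fold change was 1.74 (SE 0.330, edgeR adjusted p = 0.00358). Per 1000 CPM of NK markers the values were 19.4 to 53.1 in hematogenous and 4.93 to 9.496 in tumor-free libraries. That wider separation includes the lower marker sum of the hematogenous libraries. B cells and T cells also express Cxcr4, and their markers were read here. The 8 B cell markers summed to 78.5 to 129 CPM in hematogenous and 28.3 to 108 CPM in tumor-free libraries, and the 9 T cell markers to 524 to 701 CPM against 311 to 469 CPM. The 5 neutrophil markers summed to 3.02 to 45.8 CPM in hematogenous and 0 to 2.09 CPM in tumor-free libraries. The 10 monocyte and macrophage markers summed to 334 to 415 CPM against 258.5 to 422 CPM. Of the 9 tested, 5 were called as higher and 1 as lower. The part of any of these cells in the Cxcr4 result was not tested.

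**Figure D1:**
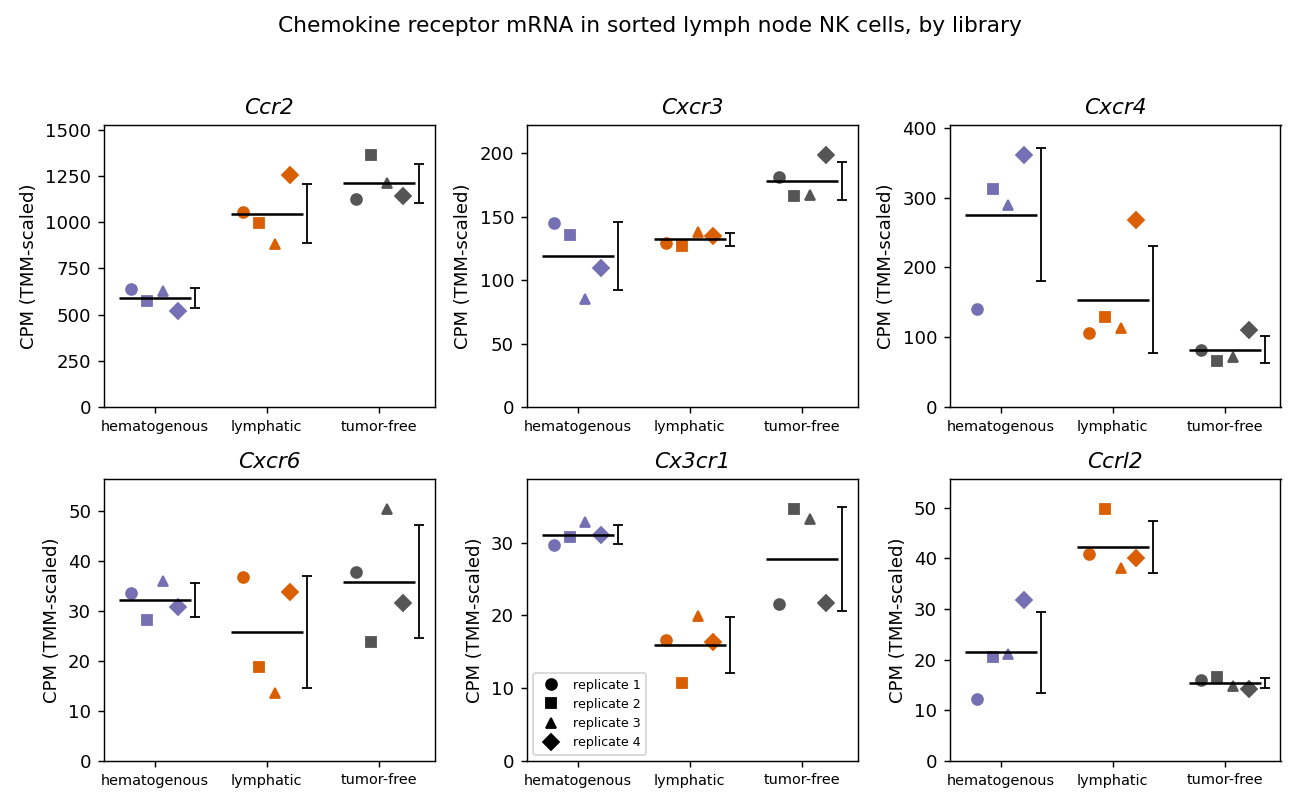
mRNA level of each receptor by library, in CPM scaled by TMM. Points are the 4 libraries of a group (shape gives the replicate number), the black line is their mean and the bar beside it the SD; all hematogenous points for Ccr2 lie between 521 and 641 CPM, below the 1125 to 1360 CPM of the tumor-free points, and all lymphatic points for Ccrl2 lie between 38.1 and 49.8 CPM, above every other point of that panel.

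The 3 receptors that were not called in the hematogenous group showed different kinds of spread. Cx3cr1, the fractalkine receptor, was tightly grouped at 29.7 to 32.8 CPM in hematogenous libraries, inside the 21.5 to 34.6 CPM of the tumor-free libraries (log2 fold change 0.16, SE 0.227, edgeR adjusted p = 0.693). Cxcr6, whose ligand is the membrane-bound chemokine Cxcl16, stood at 28.2 to 35.96 CPM in hematogenous and 23.7 to 50.4 CPM in tumor-free libraries (-0.16, SE 0.276, edgeR adjusted p = 0.749). Ccrl2 stood at 12.3, 20.5, 21.2 and 31.9 CPM in hematogenous replicates 1 to 4, against 14.2 to 16.6 CPM in tumor-free libraries (0.48, SE 0.238, edgeR adjusted p = 0.183). Hematogenous replicate 1 lay below the tumor-free range of Ccrl2 and the other 3 above it. Without that library Ccrl2 was called as higher (log2 fold change 0.68, edgeR adjusted p = 0.0384), and without hematogenous replicate 4 the log2 fold change was 0.24 (edgeR adjusted p = 0.573). The NK marker scale gave another picture for these receptors. Against the NK markers, Cx3cr1 stood at 3.85 to 4.58 in hematogenous and 1.67 to 3.03 in tumor-free libraries, and Ccrl2 at 1.71 to 4.70 in hematogenous and 1.23 to 1.35 in tumor-free libraries. Neither overlapped between the groups on that scale, whereas Cxcr6 did, at 3.52 to 4.67 in hematogenous and 1.76 to 4.59 in tumor-free libraries. The lower marker sum of the hematogenous libraries by itself raises a gene of equal CPM on that scale, so this is no separate evidence of a rise.

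In the lymphatic group, Ccrl2 was the receptor that rose over tumor-free nodes, by 2.75-fold, and no receptor was called as lower. By edgeR 2.74% of all tested genes were called in this comparison, 2.32% higher and 0.418% lower, against 1 of the 6 receptors. The 372 higher and 67 lower genes became 295 and 108 with library size alone as the scaling. Ccrl2 had 40.9, 49.8, 38.1 and 40.1 CPM in lymphatic replicates 1 to 4, against 15.9, 16.6, 14.8 and 14.2 CPM in tumor-free replicates. The spread within each group was small beside the distance between them. The log2 fold change was 1.46 (SE 0.239, edgeR adjusted p = 0.00127), and Ccrl2 was called in each of the 12 fits that left out a library. Per 1000 CPM of NK markers it stood at 3.802 to 4.15 in lymphatic and 1.23 to 1.35 in tumor-free libraries. Macrophages and neutrophils are known to express Ccrl2. The 10 monocyte and macrophage markers summed to 264 to 372 CPM in lymphatic and 259 to 422 CPM in tumor-free libraries, and the 5 neutrophil markers to 1.25 to 3.20 CPM in lymphatic and 0 to 2.09 CPM in tumor-free libraries. Much of the first sum is Ly6c2, with means of 198 CPM in lymphatic and 186 CPM in tumor-free libraries, which is also in the list of mature NK markers. Single myeloid markers went in both directions. Cd68 was called as higher, at 10.1 to 13.7 CPM in lymphatic and 1.58 to 5.77 CPM in tumor-free libraries (log2 fold change 1.60, edgeR adjusted p = 0.0164). Csf3r stood at 0.685 to 1.35 CPM in lymphatic and 0 to 0.383 CPM in tumor-free libraries without a call. Lyz2 and Apoe were lower without a call, with means of 69.1 and 17.8 CPM in lymphatic and 95.4 and 34.5 CPM in tumor-free libraries. Retnlg had no counts in either group and Cd14 none in tumor-free libraries. The part of these cells in the Ccrl2 result was not tested.

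In CPM, Cx3cr1 and Cxcr3 lay lower in every lymphatic library than in any tumor-free library, yet neither passed the test. Cx3cr1 had 16.6, 10.7, 19.98 and 16.4 CPM in lymphatic replicates 1 to 4, against 21.5, 34.6, 33.2 and 21.7 CPM in tumor-free replicates (log2 fold change -0.81, SE 0.229, edgeR adjusted p = 0.0661). It was called in 8 of the 23 alternative fits, among them those with each of the other 3 scalings. Cxcr3 had 127 to 138 CPM in lymphatic and 166 to 198 CPM in tumor-free libraries (-0.43, SE 0.142, edgeR adjusted p = 0.132), and was called in 3 of the 23 alternatives. With Ccrl2 higher and these 2 lower, the groups did not overlap for 3 of the 6 receptors, against 9.9% of all tested genes, 7.66% higher and 2.24% lower. That count is for CPM. Set against the NK markers Cx3cr1 overlapped, at 0.892 to 2.00 in lymphatic and 1.67 to 3.03 in tumor-free libraries, and so did Cxcr3, at 10.6 to 13.8 in lymphatic and 12.4 to 17.1 in tumor-free libraries.

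Ccr2 stood at 881 to 1256 CPM in lymphatic and 1125 to 1360 CPM in tumor-free libraries (log2 fold change -0.21, SE 0.124, edgeR adjusted p = 0.515). Cxcr6 had 36.7, 18.9, 13.6 and 33.8 CPM in lymphatic replicates and spread over 23.7 to 50.4 CPM in tumor-free libraries (-0.48, SE 0.275, edgeR adjusted p = 0.487). For Cxcr4, 1 library stood apart. Lymphatic replicate 4 had 267 CPM, against 106, 130 and 113 CPM in the other lymphatic and 66.1 to 110.2 CPM in the tumor-free libraries. The log2 fold change was 0.90 (SE 0.324, edgeR adjusted p = 0.204) with that library and 0.46 (edgeR adjusted p = 0.523) without it. In CPM the groups thus overlapped for Cxcr4. Relative to the NK markers the lymphatic libraries held 10.6 to 26.5 of Cxcr4 per 1000 CPM, above the 4.93 to 9.496 of the tumor-free libraries. The median marker sum was 10045 CPM in lymphatic and 12233 CPM in tumor-free libraries. That difference by itself raises a gene of equal CPM in lymphatic libraries, so this is no separate evidence of a rise. Ccr2 overlapped on that scale, at 82.9 to 125 in lymphatic and 87.5 to 110.5 in tumor-free libraries, as did Cxcr6, at 1.36 to 3.69 in lymphatic and 1.76 to 4.59 in tumor-free libraries.

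Set directly against each other, the 2 models differed in Ccr2, Cx3cr1 and Ccrl2. By edgeR 8.85% of all tested genes were called between them, 2.93% higher and 5.92% lower in the hematogenous group, against 1 higher and 2 lower of the 6 receptors. The 469 higher and 948 lower genes became 624 and 693 with DESeq2 size factors, 680 and 619 with upper quartile scaling and 744 and 590 with library size alone, which moved the median of all genes from -0.01 to 0.0998 on the log2 scale, while the 3 receptors were called in the same direction in each. The groups did not overlap for these 3 receptors, nor for 20.5% of all tested genes, 9.17% higher and 11.3% lower. Both comparisons with tumor-free nodes use the same 4 control libraries, so their values are not independent. This contrast does not set the control libraries against a model, but they enter its filter, scaling and estimate of the spread. In a fit of the 2 compared groups alone the 3 receptors were called in the same direction. The edgeR adjusted p was then 0.00476 for Ccr2, 0.00871 for Cx3cr1 and 0.0175 for Ccrl2.

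Ccr2 had 521 to 641 CPM in hematogenous and 881 to 1256 CPM in lymphatic libraries, without overlap (log2 fold change -0.83, SE 0.125, edgeR adjusted p = 0.000724). Per 1000 CPM of NK markers the means were 78.3 ± 7.50 in the hematogenous and 100.4 ± 19.0 in the lymphatic group (SD, n = 4 each), with overlapping ranges. Cx3cr1 had 29.7 to 32.8 CPM in hematogenous and 10.7 to 19.98 CPM in lymphatic libraries (0.97, SE 0.228, edgeR adjusted p = 0.0118). Against the NK markers it stood at 3.85 to 4.58 CPM in hematogenous and 0.892 to 2.00 CPM in lymphatic libraries per 1000 CPM of markers. That wider separation includes the lower marker sum of the hematogenous libraries. Monocytes carry much Cx3cr1, and the monocyte and macrophage markers summed to 334 to 415 CPM in hematogenous and 264 to 372 CPM in lymphatic libraries, of which Ly6c2 made up means of 233 CPM in hematogenous and 198 CPM in lymphatic libraries. Single markers went in both directions, without a call. Adgre1 averaged 5.82 CPM in hematogenous and 1.55 CPM in lymphatic libraries, Csf1r 19.7 against 9.27 CPM and Ccr1 2.25 against 0.399 CPM. Apoe was lower in the hematogenous group, at 11.3 against 17.8 CPM, and Cd68 nearly level, at 12.0 against 12.8 CPM. The part of monocytes in the Cx3cr1 result was not tested.

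Ccrl2 had 12.3 to 31.9 CPM in hematogenous and 38.1 to 49.8 CPM in lymphatic libraries (log2 fold change -0.97, SE 0.234, edgeR adjusted p = 0.0134). Relative to the NK markers the groups overlapped, at 1.71, 2.57, 2.56 and 4.70 in hematogenous replicates 1 to 4 and 3.802 to 4.15 in lymphatic libraries, so that hematogenous replicate 4 lay above all lymphatic libraries. Neither the Cx3cr1 nor the Ccrl2 call held without lymphatic replicate 2 (edgeR adjusted p = 0.0522 and 0.0626), and that of Ccrl2 was also lost without hematogenous replicate 3 (edgeR adjusted p = 0.0552). Between the models Cxcr4 stood at 0.84 on the log2 scale (SE 0.320, edgeR adjusted p = 0.136), and without lymphatic replicate 4 it was called at 1.23 (edgeR adjusted p = 0.00665). Without hematogenous replicate 1 it was called as well, at 1.10 (edgeR adjusted p = 0.0228). Cxcr3 at -0.15 (SE 0.142, edgeR adjusted p = 0.620) and Cxcr6 at 0.32 (SE 0.274, edgeR adjusted p = 0.579) were not called between the models.

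**Figure D2:**
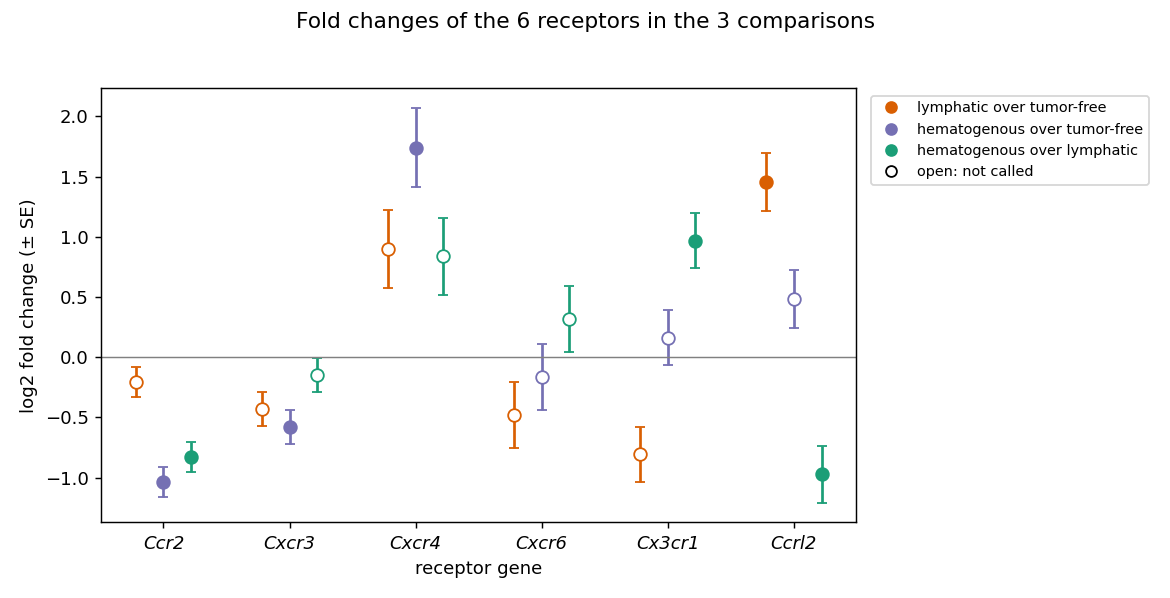
Log2 fold change of each receptor in the 3 comparisons, with the standard error from edgeR's quasi-likelihood fit of all 12 libraries. Filled circles passed an adjusted p of 0.05 and open circles did not; Cxcr4 reached 1.74 and Ccr2 -1.03 in hematogenous over tumor-free nodes, and Ccrl2 1.46 in lymphatic over tumor-free nodes.

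Levels of different receptors were compared per kilobase of exon, with lengths from GENCODE M21. Each length is the union of all annotated exons of the gene, 6760 bases for Ccr2 and 1808 bases for Cxcr4. The length of the transcripts expressed was not measured, and the order and shares of the receptors depend on the lengths used. Per kilobase the 6 receptors together summed to 340 ± 40.3 CPM in hematogenous, 349 ± 66.9 CPM in lymphatic and 358 ± 9.88 CPM in tumor-free libraries (SD, n = 4 each), so these totals differed by less than the spread within the tumor-bearing groups. Without division by length the 6 receptors summed to 1001 to 1099 CPM in hematogenous, 1204 to 1748 CPM in lymphatic and 1463 to 1667 CPM in tumor-free libraries, and the hematogenous group lay below both others. In the hematogenous group Cxcr4 led at 152 ± 52.5 CPM per kilobase, followed by Ccr2 at 87.3 ± 8.13 and Cxcr3 at 68.7 ± 15.6. Cxcr4 exceeded Ccr2 in 3 of these 4 libraries, all but replicate 1, and both their ranges and those of Ccr2 and Cxcr3 overlapped. Cxcr6 at 16.7 ± 1.74, Ccrl2 at 8.26 ± 3.09 and Cx3cr1 at 6.90 ± 0.291 CPM per kilobase came after, the last pair with overlapping ranges. In the lymphatic group Ccr2 led at 155 ± 23.3 CPM per kilobase, ahead of Cxcr4 at 85.2 ± 42.1 and Cxcr3 at 76.3 ± 2.99, an order in which neighbours overlapped. Cxcr4 exceeded Cxcr3 in only 1 of these 4 libraries, replicate 4, and lay below it in the others. Ccrl2 at 16.2 ± 1.99 and Cxcr6 at 13.3 ± 5.83 overlapped too, and Cx3cr1 was lowest at 3.54 ± 0.856 CPM per kilobase. In tumor-free nodes the order was Ccr2 at 179 ± 15.97, Cxcr3 at 103 ± 8.73, Cxcr4 at 45.7 ± 10.9 and Cxcr6 at 18.6 ± 5.84 CPM per kilobase, each without overlap with the next. Cx3cr1 at 6.17 ± 1.58 and Ccrl2 at 5.92 ± 0.402 CPM per kilobase shared the bottom of that order.

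The share of Cxcr4 in the summed receptor level per kilobase was 27.2% to 53.2% in hematogenous, 17.9% to 33.0% in lymphatic and 10.2% to 16.5% in tumor-free libraries. That of Ccr2 was 20.6% to 33.3% in hematogenous, 41.5% to 47.6% in lymphatic and 45.5% to 55.9% in tumor-free libraries. The share of Cxcr3 overlapped, at 14.7% to 29.5% in hematogenous and 26.6% to 30.9% in tumor-free libraries. A ratio of raw counts within a library does not depend on scaling. For every 100 Ccr2 reads there were 21.8, 54.5, 46.1 and 69.1 Cxcr4 reads in hematogenous replicates 1 to 4, 10.0, 13.1, 12.9 and 21.3 in lymphatic replicates and 7.34, 4.86, 5.90 and 9.68 in tumor-free replicates. The 3 groups did not overlap for this ratio, although hematogenous replicate 1 and lymphatic replicate 4 nearly met, as did lymphatic replicate 1 and tumor-free replicate 4. The ratio was chosen after its values were seen and is given without a test.

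**Figure D3:**
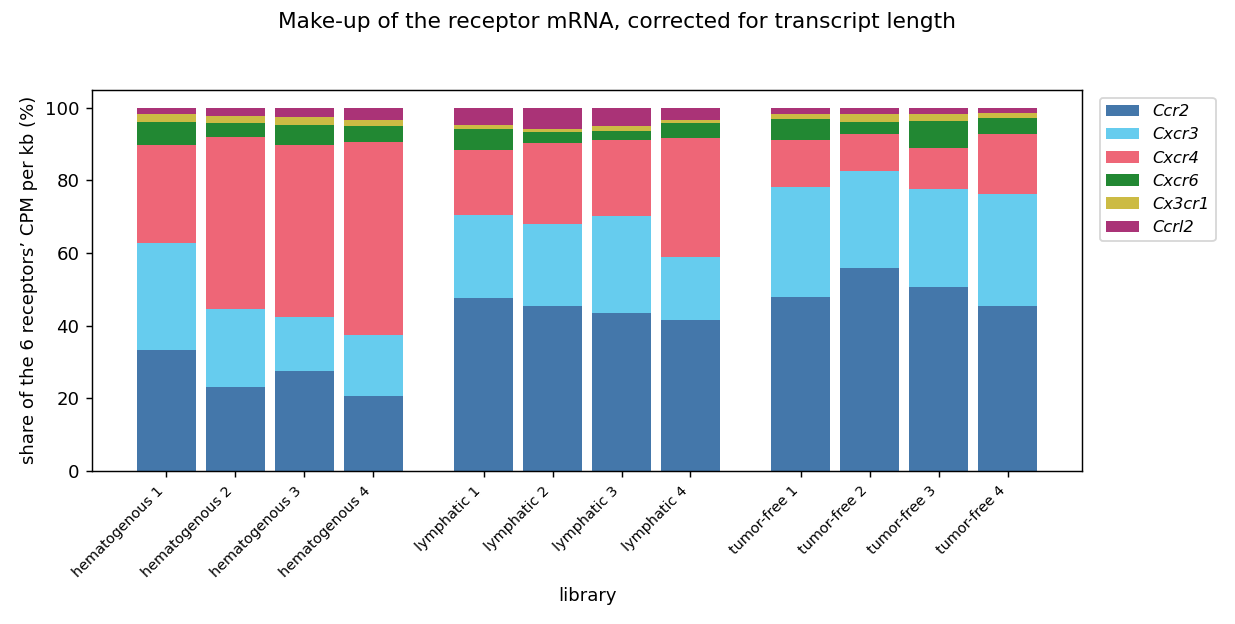
Share of each receptor in the summed CPM per kilobase of the 6 receptors, as 1 stacked bar per library (percent). The Cxcr4 segment takes 27.2% to 53.2% of hematogenous bars, 17.9% to 33.0% of lymphatic bars and 10.2% to 16.5% of tumor-free bars.

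**Figure D4:**
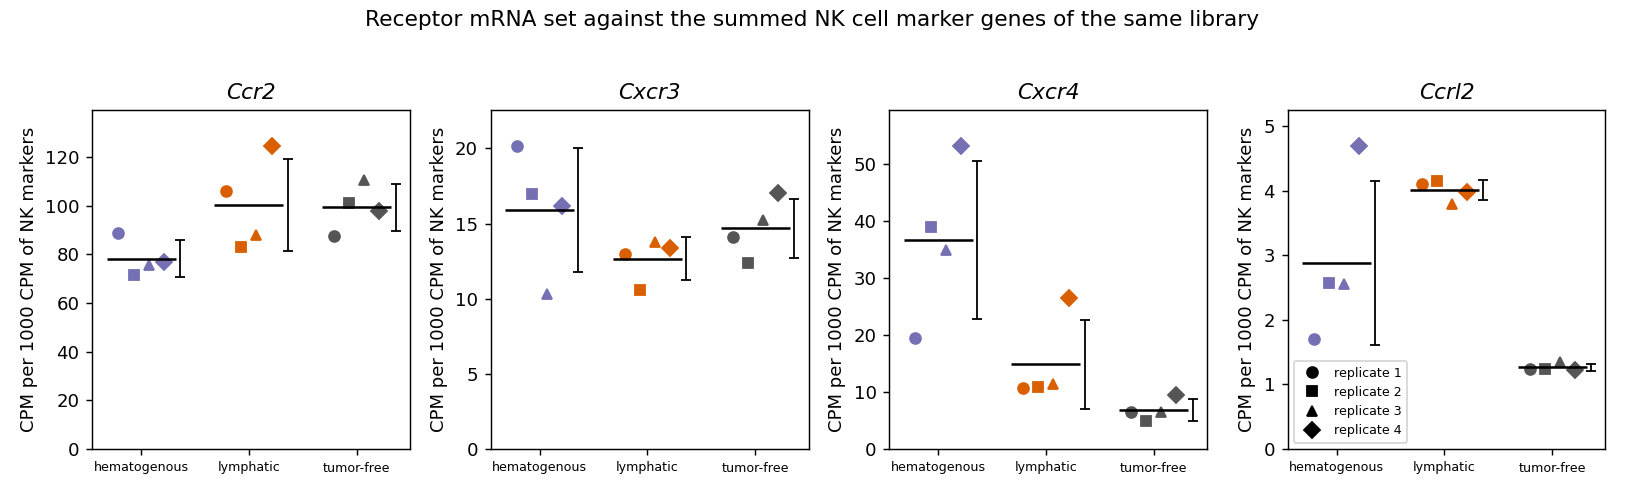
Ccr2, Cxcr3, Cxcr4 and Ccrl2 in CPM per 1000 CPM of the 10 summed NK marker genes of the same library. Points are libraries (shape gives the replicate number), the line is the mean of 4 and the bar beside it the SD. Cxcr3 overlaps between all groups. Cxcr4 in hematogenous (19.4 to 53.1) and lymphatic libraries (10.6 to 26.5) lies above all tumor-free libraries (4.93 to 9.496). Ccrl2 in lymphatic (3.802 to 4.15) and hematogenous libraries (1.71 to 4.70) also lies above all tumor-free libraries (1.23 to 1.35).

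The other chemokine receptors of the genome were read beside these 6. Of 19 listed, 11 passed the filter on low counts. In the hematogenous group over tumor-free nodes 1 was called as higher and 2 as lower, with a median log2 fold change of 0.72 over the tested receptors and 0.08 over all tested genes. Cmklr1, the signalling receptor for chemerin, fell to 40.4 ± 4.18 CPM in hematogenous libraries, against 68.1 ± 11.1 CPM in tumor-free libraries (SD, n = 4 each; log2 fold change -0.76, SE 0.176, edgeR adjusted p = 0.00652). Ccr1, a receptor of myeloid cells, was higher at 1.51 to 3.49 CPM in hematogenous libraries, against 0 to 0.298 CPM in tumor-free libraries (edgeR adjusted p = 0.0361). Over tumor-free nodes, none of the 11 was called by edgeR in the lymphatic group (median -0.16 against 0.08 over all genes), Cmklr1 standing at -0.33 on the log2 scale (SE 0.174). Between the models 1 of the 11 was called, as lower in the hematogenous group (median of the list 0.82 against -0.01 over all genes), and Cmklr1 stood at -0.43 (edgeR adjusted p = 0.144). Cxcr1 had no counts in any of the 12 libraries, where 3 counts over all libraries together would be 0.0131 CPM.

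Ligands of the 6 receptors were mostly near the limit of detection in these sorted cells, and 8 of 12 were tested. Cxcl10, an interferon-induced ligand of Cxcr3, was higher at 5.39 to 37.5 CPM in hematogenous libraries, against 0 to 5.18 CPM in tumor-free libraries (log2 fold change 2.96, SE 0.900, edgeR adjusted p = 0.0434). Mif, a cytokine that also binds Cxcr4, fell to 11.5 ± 6.56 CPM in hematogenous libraries, against 35.3 ± 6.45 CPM in tumor-free libraries (SD, n = 4 each; -1.61, SE 0.319, edgeR adjusted p = 0.00221). The median of the tested ligands was -0.32, against 0.08 over all genes. No ligand was called by edgeR in the lymphatic group (median 0.17 against 0.08), and Cxcl10 stood at 35.2 ± 16.7 CPM in lymphatic and 2.45 ± 2.83 CPM in tumor-free libraries (SD, n = 4 each; 3.75, SE 0.918, edgeR adjusted p = 0.0548) and Mif at -0.47 (SE 0.309). With DESeq2 size factors 1 ligand was called as higher in that comparison. Between the models Mif alone was called, as lower in the hematogenous group (-1.14, SE 0.314, edgeR adjusted p = 0.0275; median of the list -0.17 against -0.01 over all genes). Cxcl12, the ligand of Cxcr4 made by stromal cells, had no counts in 7 of the 12 libraries.

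Genes that couple these receptors to the cell or switch them off were all expressed, and 21 of 21 were tested. In the hematogenous group over tumor-free nodes 4 rose and 5 fell (median -0.08 against 0.08 over all genes). Gnb2, a G protein beta subunit, fell by 0.89 on the log2 scale (SE 0.162), Gnai2, the main inhibitory G protein alpha subunit of lymphocytes, by 0.71 (SE 0.136) and the GTPase gene Rac2 by 0.54 (SE 0.102). Pik3r5, a regulatory subunit of PI3K gamma, rose by 0.53 (SE 0.118) and Arrb1, a beta-arrestin that desensitizes receptors, by 0.66 (SE 0.169). For the lymphatic group 2 rose and none fell (median -0.03 against 0.08), but 1 was called as lower with DESeq2 size factors or upper quartile scaling and 2 with library size alone. These were the genes of 2 regulators that shorten G protein signalling, Rgs2 at 1.70 (SE 0.236, edgeR adjusted p = 0.00026) and Rgs1 at 2.07 (SE 0.375, edgeR adjusted p = 0.00959). Between the models 2 were higher and 4 lower in the hematogenous group (median -0.08 against -0.01). The 5 with the smallest adjusted p were Gnai2 at -0.53 (SE 0.136), Arrb1 at 0.62 (SE 0.168), Gnb2 at -0.58 (SE 0.161), Rgs2 at -0.81 (SE 0.229) and Ric8a, a chaperone of G protein alpha subunits, at 0.35. This split between the models hung on the scaling, with 4 higher and 3 lower with DESeq2 size factors and 4 higher and 1 lower with upper quartile scaling or library size alone. Rac2 was not called in any of these 3, and Gnb2 and Rgs2 not in the last pair.

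Maturation markers were read beside Cx3cr1 and Cxcr6. Of 10 markers of mature NK cells, 4 fell and none rose in the hematogenous group over tumor-free nodes (median -0.28 against 0.08 over all genes), namely the integrin gene Itgb2 at -0.70, Spn at -0.42, the inhibitory receptor gene Klrg1 at -0.86 and the egress receptor gene S1pr5 at -0.57. None of the 10 was called by edgeR in the lymphatic group (median 0.05 against 0.08), Itgb2 standing at -0.28 and Spn at 0.0025. Between the models Spn at -0.42, Itgb2 at -0.42 and Klrg1 at -0.76 were lower in the hematogenous group and none was higher (median -0.09 against -0.01). Of these, Spn alone was called with DESeq2 size factors, and none with upper quartile scaling or library size alone, where the median of the list was 0.0051 and 0.02. S1pr5 in the hematogenous group over tumor-free nodes was likewise not called with upper quartile scaling or library size alone. Of 12 markers of group 1 innate lymphoid cells and immature NK cells, 2 rose and 4 fell in the hematogenous group over tumor-free nodes (median -0.01 against 0.08). The cytokine receptor gene Il7r rose by 2.23 and Emb by 1.24, while Itga1, a residency integrin gene, fell by 0.82, Cd7 by 0.68 and Tnfsf10 by 0.54 on the log2 scale. In the lymphatic group 3 fell and none rose (median -0.52 against 0.08), Itga1 at -1.41, Zfp683 at -2.83 and Tnfsf10 at -0.53. Between the models Il7r at 2.21, Inpp4b at 0.97 and Zfp683 at 1.67 were higher in the hematogenous group and none was lower (median 0.62 against -0.01).

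Markers of other cells moved with the hematogenous group. Of the 10 NK markers 8 fell and none rose over tumor-free nodes, with Tyrobp at -1.20, Ncr1 at -1.09, Nkg7 at -0.93, Gzma at -1.20 and Prf1 at -1.06 the lowest in adjusted p. Of 9 tested monocyte and macrophage markers 5 rose, Ccr1 among them, and Apoe fell, by 1.62 on the log2 scale. Csf1r averaged 19.7 CPM in hematogenous and 6.01 CPM in tumor-free libraries, Cd68 averaged 12.0 against 4.20 CPM, Adgre1 5.82 against 0.354 CPM and Cd14 1.06 against 0 CPM. The neutrophil genes Csf3r, S100a8 and S100a9 (3 of 4 tested) averaged 7.52, 7.13 and 9.18 CPM in hematogenous libraries, against 0.0959, 0.117 and 0.213 CPM in tumor-free libraries, and were called as higher. Of 9 T cell markers Cd8a, Trac and Cd3e rose, by 1.53, 0.93 and 1.30. Also higher were Pax5 of 8 B cell markers, Flt3 of 5 tested dendritic cell markers, Hba-a2 and Hbb-bt of 5 erythroid markers, and 3 of 5 tested genes of group 2 and 3 innate lymphoid cells, Il23r and Kit among them, while Gata3 fell. Of the stromal and endothelial list 2 of 7 genes were tested and none was called by edgeR, with Pecam1 at 0.11 and Col1a2 at 0.04.

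In the lymphatic group over tumor-free nodes the same lists gave few calls by edgeR. Klrb1c, the gene of NK1.1, fell by 0.54 among the NK markers, while Cd68, Pax5, Pecam1, Hba-a2, Il23r and Kit rose in their lists, Kit without a call under the other 3 scalings. None of the T cell, dendritic cell or neutrophil markers was called, with Cd28 at 0.15, Cd3g at -0.17, Itgax at 0.47, H2-Aa at 0.82, S100a9 at -0.52 and Csf3r at 2.90 on the log2 scale. Between the models 7 of 10 NK markers were lower in the hematogenous group and none was higher, including Nkg7 at -0.86, Tyrobp at -0.82, Prf1 at -0.95, Eomes at -0.65 and Ncr1 at -0.69. S100a8, S100a9, Csf3r and Cd8a were higher in the hematogenous group, and Itgax and Pecam1 lower, Pecam1 without a call under upper quartile scaling or library size alone. The remaining lists had no call between the models, with Lyz2 at 0.40, Ly6c2 at 0.23, Cd22 at -0.46, Kit at 0.0020, Gata3 at -0.15, Hbb-bs at -0.54 and Hbb-bt at 0.01. The part of these cells in the receptor results was not tested beyond the values given above.

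Genes whose levels followed each receptor most closely were found by the root mean square difference of log2 CPM, centred over the 12 libraries, among 9472 genes with a mean of at least 5 CPM. For Ccr2, which itself varied by 0.47 on this scale, they were Anxa1 (0.17), Slc25a11 (0.17) and the integrin gene Itgb7 (0.19). For Cxcr3, varying by 0.31, they were Bin1 (0.12), Tmem134 (0.12) and Mettl26 (0.13). Cxcr4 varied most, by 0.83, and was followed by the glucocorticoid-induced gene Tsc22d3 (0.27), the mRNA decay factor gene Zfp36l2 (0.28) and Nt5e (0.37), which encodes the ecto-enzyme CD73. Tsc22d3 averaged 456 CPM in hematogenous, 206 CPM in lymphatic and 108.5 CPM in tumor-free libraries. For Ccrl2, varying by 0.68, they were the interferon-induced gene Ifit2 (0.22), the transcription factor gene Irf8 (0.24) and Rgs2 (0.24). Ifit2 averaged 78.4 CPM in hematogenous, 157 CPM in lymphatic and 55.6 CPM in tumor-free libraries. For Cx3cr1, varying by 0.51, they were the cold-inducible gene Cirbp (0.20), Nebl (0.25) and Hsf4 (0.28). Cxcr6 was matched least well for its own variation of 0.48, by Lancl1 (0.30), the sterol synthesis gene Sc5d (0.31) and the activating receptor gene Cd226 (0.32). These are descriptions over libraries that share 3 groups, not tests.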

How the data were processed

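Each deposited file holds the raw counts of reads per gene for 1 library. The submitters' processing notes name the build GRCm39 and the tools HISAT2 2.1.0, HTSeq 2.0.2, Trimmomatic 0.39 and FastQC 0.11.9, but the annotation release and strand setting are not given in them. The 5 summary lines per file name no gene and stayed out of every sum and test (outside features 11.4% to 24.6% of reads, ambiguous 1.55% to 2.12%, unaligned 5.51% to 14.6%, with several alignments 3.85% to 6.48%). GENCODE M21 gave symbols for 91.8% of the 56748 IDs. Counts were fitted with edgeR 4.0.16 in R 4.3.3: quasi-likelihood test, robust, TMM, default expression filter, a model of group alone on all 12 libraries with 9 residual degrees of freedom. SE is |log2 fold change| over the root of F. The floor of 3 counts covers counting error only.

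The members, lists, tests and alternatives were chosen with earlier results of these data known. Beside the 6 receptors, the text names from each list the called genes, up to 5 by smallest adjusted p, or, with none called, the 2 of highest mean CPM, and the 3 genes most like each receptor. Genes outside that rule were named after their values were seen. They are Cxcl12, Cxcr1, markers at 0, Cmklr1 between the models and most of the single myeloid markers set beside Ccrl2 and Cx3cr1. Some genes that the rule would name are not reported here. Samples with the same number did not deviate together (12 pairs, r across genes -0.0727 to 0.0589, 0 above 0.1), so numbers were not taken as pairs. That check is over all genes and does not speak for a single gene. Cxcr4 was highest in replicate 4 of every group, and its calls with a replicate block are given below. Tested on simulated data of 16016 genes with 200 changed, the fit recovered 46% of 2-fold and 62% of 4-fold changes for lymphatic over tumor-free, 37% and 58% for hematogenous over tumor-free, and 42% and 59% between the models. False calls were 8 of 116, 2 of 97 and 3 of 104 in the same order. Alternatives were 3 scalings, 2 filters, DESeq2 1.42.0, voom in limma 3.58.1, no robust estimation, the compared groups alone, a replicate block, equal depth of 6654215 counts and leaving out each library.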

Additional observations from a re-analysis of the deposited data

Results flagged for a closer look

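Cxcr4 in lymphatic replicate 4 stood apart from the other 3 lymphatic libraries: its gap to the next library took 0.853 of the range of the group, above the 95% critical value of Dixon's test for 4 values. Of 18 sets of 4 values (6 receptors in 3 groups) this was the 1 that passed, and chance alone passes about 1 in 20. Replicate 4 was also the highest for Cxcr4 in the hematogenous group, at 360 CPM, and in the tumor-free group, at 110.2 CPM. The Cxcr4 values with and without lymphatic replicate 4 are given with the lymphatic results.

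For 3 receptors the effect of the hematogenous model differed from that of the lymphatic model when the models were tested against each other. The log2 fold change of hematogenous over lymphatic was -0.83 for Ccr2 (edgeR adjusted p = 0.000724), 0.97 for Cx3cr1 (edgeR adjusted p = 0.0118) and -0.97 for Ccrl2 (edgeR adjusted p = 0.0134). In CPM, all 4 hematogenous libraries lay on the stated side of all 4 lymphatic libraries in each case. Per 1000 CPM of NK markers this held for Cx3cr1, while Ccr2 (71.4 to 88.9 in hematogenous and 82.9 to 125 in lymphatic libraries) and Ccrl2 (1.71 to 4.70 in hematogenous and 3.802 to 4.15 in lymphatic libraries) overlapped.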

How the results depend on the processing

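The calls of Ccr2, Cxcr3 and Cxcr4 for hematogenous over tumor-free, of Ccrl2 for lymphatic over tumor-free and of Ccr2 between the models held under all 23 alternatives. Of the 6 receptors 1 was called for lymphatic over tumor-free. The number was 2 with DESeq2 size factors, upper quartile scaling, library size alone, no filter on low counts, voom, the replicate block and the compared groups alone, and 3 with DESeq2. In these 7 settings the added receptor was Cx3cr1, except Cxcr4 with the block (log2 fold change 0.81, edgeR adjusted p = 0.0323) and Cxcr3 in the fit of the compared groups alone; DESeq2 added Cx3cr1 and Cxcr3. The causes were not tested. Leaving out a library gave 1 to 2 receptors called for lymphatic over tumor-free, 3 to 4 for hematogenous over tumor-free and 1 (without lymphatic replicate 2) to 4 between the models. The replicate block also called Cxcr4 between the models (log2 fold change 0.89, edgeR adjusted p = 0.00809), as voom did (0.91, adjusted p = 0.0115), and changed no other call among the receptors. Over all genes, 439 were called for lymphatic over tumor-free (362 with the block; 891 with DESeq2, run on every gene with a count; 255 to 634 without a library), 2625 for hematogenous over tumor-free (2518 with the block, 1760 to 3202 without a library) and 1417 between the models (1439 with the block, 2169 with DESeq2, 2913 with voom, 620 to 1572 without a library). With a library left out, the counts that moved by over 1.5 times were 255 without lymphatic replicate 4 for lymphatic over tumor-free and, between the models, 620 without lymphatic replicate 2, 620 without hematogenous replicate 3 and 811 without hematogenous replicate 1. 2 uncalled values changed sign when a library was left out: Cxcr6 for hematogenous over tumor-free ranged from -0.30 to 0.055 (without tumor-free replicate 3), and Cxcr3 between the models from -0.22 to 0.017 (without hematogenous replicate 3). At equal depth every receptor call was as reported. In tumor-free libraries Ccrl2 and Cx3cr1 rested on 99 to 348 and 151 to 780 counts per library.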
